A study of Mus musculus with 4 samples.

Results

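The proteasome is the barrel-shaped protease that degrades ubiquitin-tagged proteins in the cytosol and nucleus. Its core particle stacks rings of alpha subunits, which gate the entry, around rings of beta subunits, of which Psmb5, Psmb6 and Psmb7 carry the catalytic sites. A regulatory particle on either end recognises ubiquitin, removes it, and unfolds the substrate with a ring of ATPases. In cells exposed to interferon, the inducible subunits Psmb8, Psmb9 and Psmb10 can take the place of the 3 constitutive catalytic subunits, forming the immunoproteasome, and the activator made of Psme1 and Psme2 can cap the core.

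The genes described here are the constitutive side of this machine. They were taken by name: every gene of the count table whose symbol begins with Psma, Psmb, Psmc, Psmd, Psme, Psmf or Psmg and a digit, leaving out Psmb8, Psmb9, Psmb10, Psme1 and Psme2. The rule took 46 of 24148 genes. Of these, 41 are subunits, activators, an inhibitor or assembly chaperones, and 5 were set apart: Psma8 and Psmb11, known as testis and thymus forms of core subunits, Psmc3ip and Psme3ip1, which are not subunits, and Psme2b, a gene close in sequence to the interferon-induced activator gene Psme2. The word constitutive therefore applies to the 41 and not to Psme2b.

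RNA was sequenced from mouse primary microglia in 2 groups of 2 libraries: cells given lipopolysaccharide (LPS, a cell wall component of Gram-negative bacteria) at 10 ng/ml for 4 h, and control cells. The cells of both groups had been shaken off mixed glial cultures grown from mice and plated again, and no sorting step is described. Nothing in the labels says that the libraries of a group came from separate cultures, so the p-values measure the spread between these libraries, which may be technical. The table held 5095630 and 4592474 counts in the LPS libraries and 3617176 and 4080568 in the control libraries. Of 10 microglial markers, 8 reached the minimum for testing and none was called higher or lower by edgeR. Their summed level was 1734 and 1501 CPM (counts scaled by library size, with TMM factors) in LPS and 2696 and 2084 CPM in control libraries. The defining marker Itgam, which has 2 accessions in the table, had 0 counts in all 4 libraries, and Trem2 was below the minimum. Astrocyte markers summed to 121 and 429 CPM in LPS and 105 and 297 CPM in control libraries, and markers of the oligodendrocyte lineage to 387 and 57.1 CPM against 379 and 65.4 CPM. Thus both lists differed between libraries numbered 1 and 2 by more than between LPS and control. Neuronal, fibroblast, endothelial and blood leukocyte markers summed to between 11.5 and 64.3 CPM in LPS and between 6.05 and 50.7 CPM in control libraries, and no gene of any of these lists was called. Pecam1 and Tek (endothelium) and S100a9 (neutrophils) were at 0. The part of any of these marker levels in the results below was not tested. In such bulk libraries, fewer cells of a type and less RNA per cell cannot be told apart.

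With LPS, 6 of the 40 members that could be tested were higher and none was lower (edgeR's quasi-likelihood test, adjusted p under 0.05). Over all 9548 genes tested, 6.55% were called higher and 1.79% lower. The 6 were the alpha ring genes Psma2, Psma5 and Psma6, the catalytic beta subunit gene Psmb6, the regulatory particle gene Psmd11, and Psme2b. Simulated data had 200 changed genes and the same biological spread between libraries for all genes. In them the edgeR test called 0 of 63 genes with a true log2 change of 1 in either direction. The real data had 625 genes called higher and 171 lower, so this share does not give the recovery here. Members that did not pass the test may still have changed. At an unadjusted p under 0.05, 14 members were higher and 0 lower in edgeR, against 12.8% and 8.51% of all genes. DESeq2 called 6 members higher and 0 lower (7.76% and 2.38% of all genes), and limma-trend also 6 and 0 (6.74% and 1.91% of all genes). The median log2 fold change of the tested members was 0.49, against -0.05 for all genes tested, and 36 of the 40 lay above that all-gene median. With TMM scaling, values above 0 were found in 35 of the 40 members and in 46.4% of all genes. Members above 0 numbered 23 with total-count scaling and 26 after quantile normalization. The all-gene medians there were -0.48 and -0.14, so the 46.4% does not apply to these 2 counts. Both LPS libraries exceeded both control libraries for 27 of the 40 members (67.5%), and for 24.7% of all genes tested. The scaling matters for the sign of small changes: dividing by total counts put the median of all genes at -0.48, and that of the members at 0.06, and left 1 member called (Psme2b), with 4.93% of all genes called higher and 5.06% lower. Relative to the median of all genes, the members' median was 0.54 higher with either scaling. A scaling factor moves all genes of a library alike, so this difference could hardly change between these scalings. It was 0.28 after quantile normalization, which also left 1 member called (Psme2b), with 5.49% of all genes higher and 3.37% lower.

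**Figure D1:**
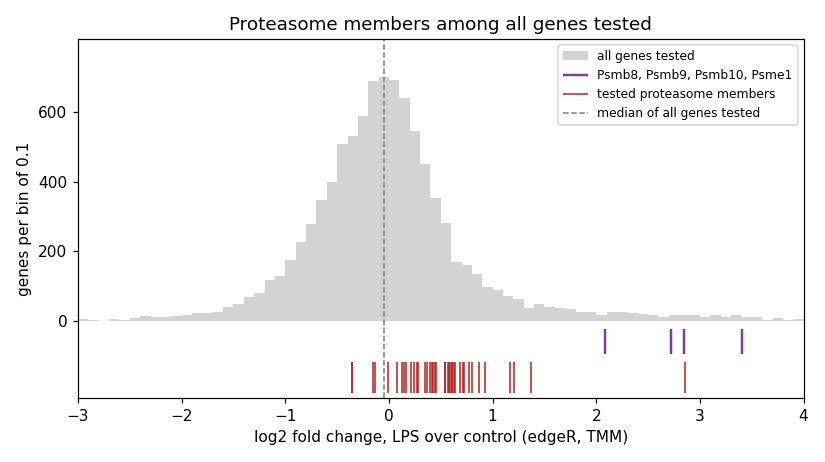
Histogram of the log2 fold change (LPS over control, horizontal axis; genes per bin of 0.1, vertical axis) of all genes tested, with 1 tick for each of the 40 tested proteasome members (red) and for the 4 tested inducible genes (purple); the axis is limited to -3 to 4, which leaves out 164 genes. Most members lie to the right of the dashed all-gene median of -0.05, and all but Psme2b lie to the left of the inducible genes.

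The 6 untested members were below a mean count of 10. Of these, 5 are the genes with 2 accessions in the table: Psma7, an alpha ring subunit, Psmd2, a scaffold of the base, Psmd4, a ubiquitin receptor, and the assembly chaperones Psmd10 and Psmg4. Psmd4 had 0 counts in all 4 libraries, Psma7 had 2 and 3 counts in LPS and 0 and 3 in control libraries, and the other 3 had between 0 and 3 counts in any library. Psma7, Psmd2 and Psmd4 are parts of the complete proteasome. Across the table, 88.3% of genes with several accessions were under the minimum, against 53.5% of genes with 1 accession, and whether the low counts of these 5 reflect their expression was not tested. The sixth, Psma8, had 6 and 1 counts in LPS and 6 and 10 in control libraries.

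Among the alpha ring genes, 3 of 6 tested members rose, beside 6.55% of all genes tested. The other 3 did not pass the test, and the median log2 fold change of the 6 was 0.84. Psma6 had 375 and 379 CPM in LPS libraries, against 136 and 156 CPM in control libraries. The groups were far apart relative to the difference within each of them. This was 2.58-fold higher (log2 1.37 ± 0.19 SE, adjusted p = 0.011). Psma5 had 247 and 209 CPM in LPS and 99.9 and 97.3 CPM in control libraries, a 2.31-fold difference (log2 1.21 ± 0.20, adjusted p = 0.020). Psma2 had 267 and 255 CPM in LPS and 140 and 147 CPM in control libraries (log2 0.87 ± 0.18, adjusted p = 0.046). These subunits form the gate and the outer ring that binds the regulatory particle. At the other end of the ring, Psma1 had 164 and 178 CPM in LPS and 143 and 182 CPM in control libraries, so its groups overlapped (log2 0.07 ± 0.21, adjusted p = 0.90, and -0.37 with total-count scaling). Psma3 and Psma4 lay between, at log2 0.80 ± 0.19 (adjusted p = 0.070) and 0.73 ± 0.29 (adjusted p = 0.23). In each the LPS libraries were above both controls, as in 24.7% of all genes tested. Psma4 had a wide control spread, 76.8 and 129 CPM, beside 168 and 173 CPM in LPS.

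**Figure D2:**
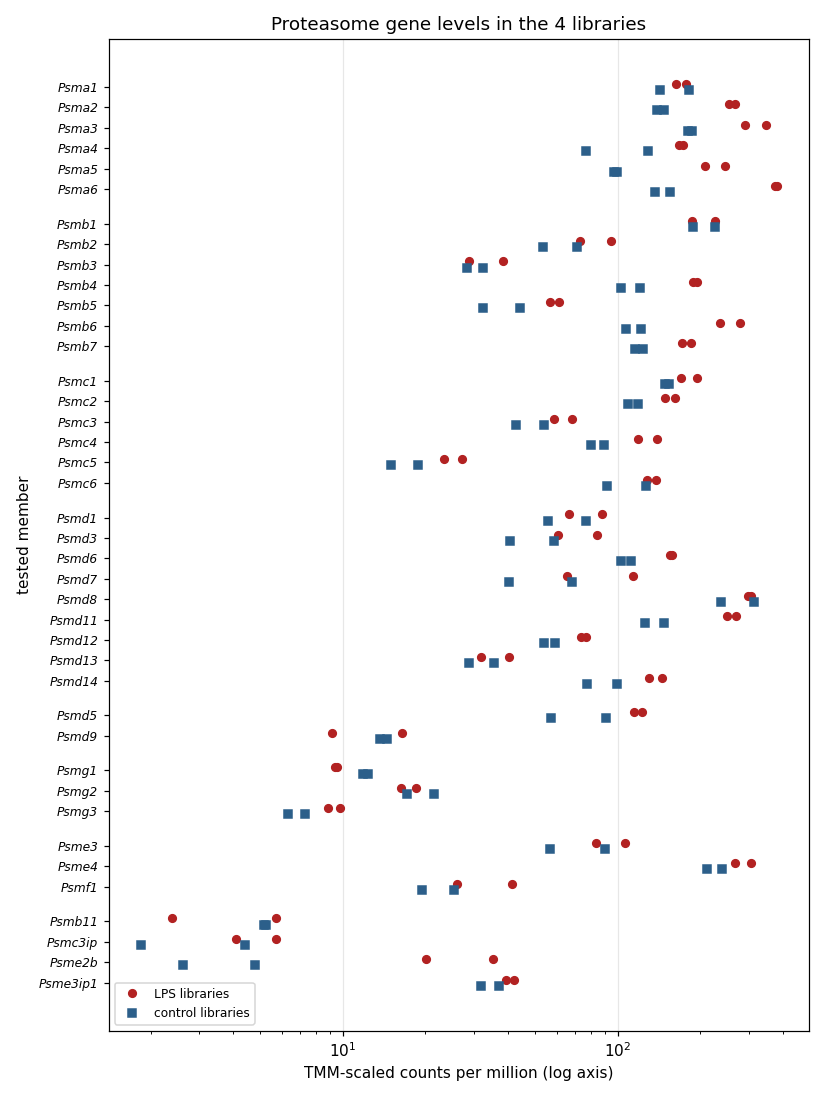
TMM-scaled CPM (log axis) of the 40 tested members in each LPS library (red circles) and control library (blue squares), grouped by role from the alpha ring at the top to the 4 tested genes set apart at the bottom. The LPS points of Psma2, Psma5, Psma6, Psmb6 and Psmd11 are clear of the control points, while those of Psma1, Psmb1 and Psmd8 overlap with them.

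Of the 7 beta ring genes, Psmb6 rose, beside 6.55% of all genes tested, and the other 6 did not pass the test (median log2 fold change 0.58). Psmb6, the caspase-like catalytic subunit, had 279 and 237 CPM in LPS and 107 and 122 CPM in control libraries, 2.25-fold higher (log2 1.17 ± 0.20, adjusted p = 0.024). Psmb7, the trypsin-like subunit, had 185 and 172 CPM in LPS and 123 and 115 CPM in control libraries (log2 0.58 ± 0.19, adjusted p = 0.15). Psmb5, the chymotrypsin-like subunit and target of proteasome inhibitor drugs, had 61.4 and 56.9 CPM in LPS and 44.2 and 32.5 CPM in control libraries (log2 0.63 ± 0.24, adjusted p = 0.22). For all 3 catalytic genes the LPS libraries were above both controls, as they were for 24.7% of all genes tested. The structural subunit Psmb1 stood at the low end, with 187 and 225 CPM in LPS and 189 and 226 CPM in control libraries (log2 -0.01 ± 0.21, adjusted p = 0.99). Its groups covered the same range. Psmb4, Psmb2 and Psmb3, also structural, had log2 fold changes of 0.78 ± 0.20, 0.43 ± 0.25 and 0.15 ± 0.25, without a call.

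The calls in the core were lost when either LPS library was left out. Without LPS replicate 1 the adjusted p was 0.075 for Psma6, 0.16 for Psma5, 0.29 for Psma2 and 0.18 for Psmb6, and without LPS replicate 2 it was 0.078, 0.083, 0.23 and 0.094 for the same genes. Their log2 fold changes in these fits stayed between 0.84 and 1.39. Psma2 also lost its call without control replicate 1 (0.82, adjusted p = 0.13) or control replicate 2 (0.87, 0.11). With total-count scaling the log2 fold changes were 0.93 for Psma6 (adjusted p = 0.063), 0.78 for Psma5 (0.081), 0.73 for Psmb6 (0.12) and 0.43 for Psma2 (0.26), and after quantile normalization 0.81 (0.089), 0.72 (0.071), 0.66 (0.12) and 0.32 (0.40).

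The start regions of these genes are shown so that the letters before genes that rose can be set beside those of Psmb5, the main drug target, and Psma1, the alpha ring gene with the smallest change. Psma6 lies on chromosome 12 (55384222-55418459, GRCm38.p6, plus strand), Psma5 on chromosome 3 (108256926-108279952, plus), Psma2 on chromosome 13 (14613242-14625673, plus), Psmb6 on chromosome 11 (70525324-70527858, plus), Psmb5 on chromosome 14 (54614120-54617995, minus), Psmd11 on chromosome 11 (80428615-80473248, plus) and Psma1 on chromosome 7 (114264550-114276116, minus). Each line gives the 100 bases before a RefSeq transcription start (30 bases for Psmb6), on the strand of the gene, from the GRCm38.p6 promoter table. The start listed there for Psmb6 lies inside its RefSeq gene span, so its stretch, at 70525327-70525356, is part of the annotated gene and was kept to 30 bases. The GENCODE annotation names pseudogenes of Psmb5, Psmb6 and Psmb7. In it, exons of Psma5 and Psmb7 overlap those of 1700010K24Rik and Nek6 on the opposite strand, and exons of Psmb5 overlap Mir686 on the same strand. Some reads of these genes may therefore be shared. Capitals mark the letters TGACNNNGC, the core of the antioxidant response element bound by NRF1 and NRF2 with small Maf proteins, and CCAAT, the box bound by NF-Y, on either strand.
Psma6 (1 of 2 starts in the table): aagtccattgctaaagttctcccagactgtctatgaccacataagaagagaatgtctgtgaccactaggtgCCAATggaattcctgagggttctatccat
Psma5: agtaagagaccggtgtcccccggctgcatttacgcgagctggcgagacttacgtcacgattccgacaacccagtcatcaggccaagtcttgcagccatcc
Psma2: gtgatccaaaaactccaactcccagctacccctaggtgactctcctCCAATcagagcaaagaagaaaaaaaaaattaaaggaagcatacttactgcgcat
Psmb6: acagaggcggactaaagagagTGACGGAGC
Psmb5: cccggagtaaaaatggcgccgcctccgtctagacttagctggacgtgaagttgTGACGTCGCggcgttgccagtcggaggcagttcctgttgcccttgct
Psmd11: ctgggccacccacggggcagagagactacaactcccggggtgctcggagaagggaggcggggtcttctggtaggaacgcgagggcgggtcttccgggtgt
Psma1: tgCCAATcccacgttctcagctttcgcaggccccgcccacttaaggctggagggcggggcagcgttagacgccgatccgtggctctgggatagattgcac
In windows from 250 bases before to 50 bases after the start, TGACNNNGC was found in 6 of the 41 windows of 38 members (14.6%) and in 12.4% of 32851 windows of all genes. Its 6 members were Psmb5, Psmb6, Psmc6, Psmd9, Psmd12 and Psme4, of which Psmb6 alone was called. CCAAT was found in 36.6% of member windows and in 37.4% of all. Letters of an interferon response element, GAAA followed after 2 bases by GAAA, were in 4 member windows (9.76%, against 3.44% of all), those of Psmb3, Psmd4, Psmd9 and Psmg4, and letters of an NF-kB site, GGGA followed after 2 bases by TTCC, in that of Psme4 (2.44%, against 1.47%). Both strands were searched, and 0 hits of different motifs overlapped in member windows. The motif shares for TGACNNNGC and CCAAT were thus close to those of all genes.

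None of the 6 ATPase genes of the base, which unfold the substrate, passed the test. Their log2 fold changes ran from 0.27 to 0.61 with a median of 0.42. Psmc4 had the highest, with 139 and 119 CPM in LPS and 89.4 and 79.8 CPM in control libraries (0.61 ± 0.21, adjusted p = 0.17). Psmc1 had the lowest, with 194 and 170 CPM in LPS and 153 and 149 CPM in control libraries (0.27 ± 0.19, adjusted p = 0.50). For all 6 the LPS libraries were above both controls, a pattern shared by 24.7% of all genes tested. With total-count scaling 3 of the 6 (Psmc1, Psmc3 and Psmc6) had values below 0, as had Psmc1, Psmc2 and Psmc6 after quantile normalization. With total counts the median of the ATPase genes was -0.01, which is 0.46 above that of all genes, a difference that scaling factors can hardly move.

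Of the 9 tested non-ATPase subunit genes of the regulatory particle, 1 rose, beside 6.55% of all genes tested. Their log2 fold changes ran from 0.13 to 0.93 with a median of 0.54. Psmd11, a lid scaffold that contacts the core particle, had 251 and 270 CPM in LPS and 126 and 148 CPM in control libraries, 1.90-fold higher (log2 0.93 ± 0.19, adjusted p = 0.046). Both LPS libraries were above both controls, as in 24.7% of all genes tested. Its call was lost when any 1 library was left out, at an adjusted p of 0.21 without LPS replicate 1, 0.26 without LPS replicate 2, 0.14 without control replicate 1 and 0.069 without control replicate 2. It was also lost with a minimum mean count of 50 (0.051), total-count scaling (0.25) and quantile normalization (0.39). Psmd8, another lid subunit, had 306 and 298 CPM in LPS and 237 and 315 CPM in control libraries, overlapping groups (0.13 ± 0.21, adjusted p = 0.81, and -0.32 with total-count scaling). Psmd14, the deubiquitinase that strips ubiquitin from the substrate, had 130 and 146 CPM in LPS and 77.6 and 99.2 CPM in control libraries (0.64 ± 0.22, adjusted p = 0.17). Psmd7, its partner without catalytic activity, had the widest error of the 9 (0.72 ± 0.38, adjusted p = 0.37). It had 65.7 and 114 CPM in LPS and 40.2 and 68.5 CPM in control libraries, overlapping groups. Between libraries of the same number, its log2 ratios of LPS over control were close, at 0.71 and 0.73. In 8 of the 9 genes control replicate 1 was the lowest of the 4 libraries, which held for 24.4% of all genes tested and for 20 of the 40 members.

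**Figure D3:**
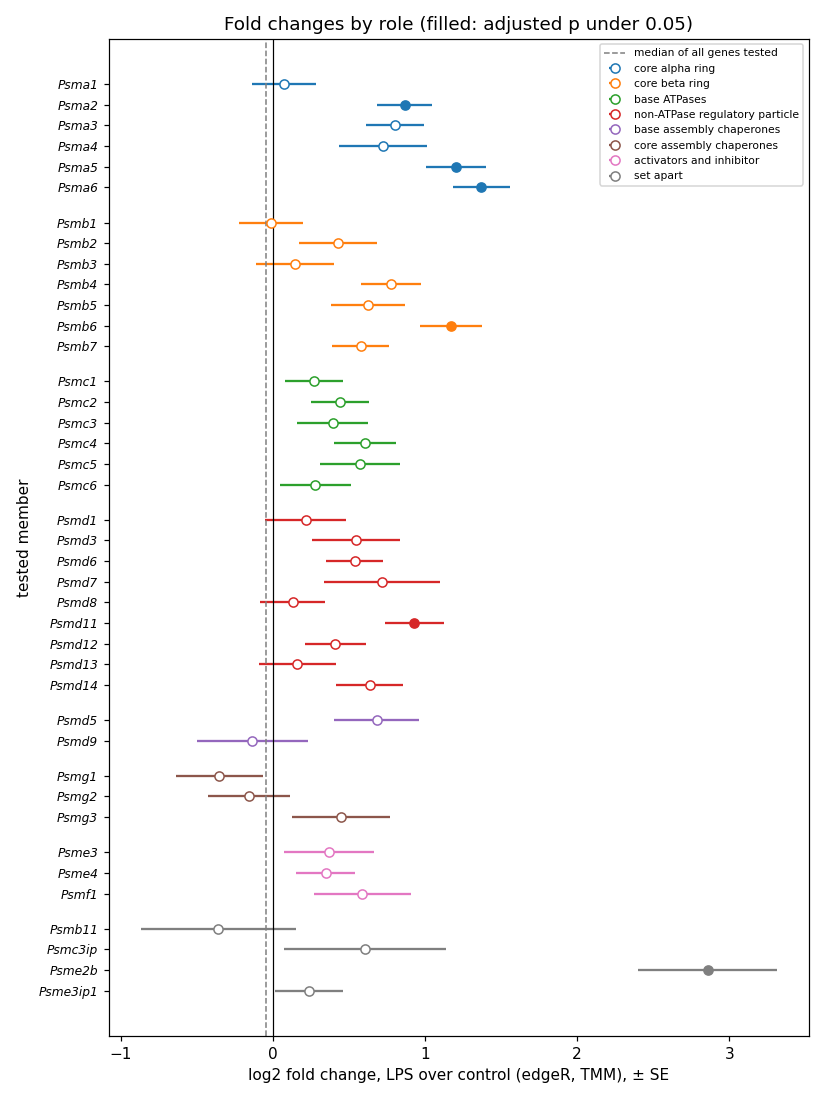
Log2 fold change (LPS over control) with its standard error for each tested member, coloured by role; filled points passed the test and open points did not, the solid line is 0 and the dashed line the all-gene median of -0.05. All 6 alpha, 6 of 7 beta, 6 ATPase and 9 non-ATPase genes have values above 0, whereas the core assembly chaperones Psmg1 and Psmg2 have values below it; with total-count scaling Psma1, Psmb3, 3 ATPase and 4 non-ATPase genes also fell below 0.

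The assembly chaperones, which build the particles and are not part of the finished machine, did not pass the test: of 5 tested, Psmd5 and Psmg3 had values above 0 and Psmg1, Psmg2 and Psmd9 values below 0. Psmg1, a chaperone of the alpha ring, had 9.55 and 9.35 CPM in LPS and 11.8 and 12.3 CPM in control libraries (log2 -0.35 ± 0.29, adjusted p = 0.58). It was the 1 tested member with both LPS libraries below both controls, which held for 25.8% of all genes tested. Its partner Psmg2 had 16.2 and 18.5 CPM in LPS and 17.1 and 21.5 CPM in control libraries (-0.16 ± 0.27, adjusted p = 0.82). Psmg3 had 9.79 and 8.88 CPM in LPS and 6.31 and 7.31 CPM in control libraries (0.45 ± 0.32, adjusted p = 0.52). Of the chaperones of the base, Psmd5 had 115 and 123 CPM in LPS and 57.0 and 91.0 CPM in control libraries (0.68 ± 0.28, adjusted p = 0.24), and Psmd9 had 16.5 and 9.12 CPM in LPS and 14.5 and 13.7 CPM in control libraries (-0.13 ± 0.37, adjusted p = 0.90, and 0.23 without LPS replicate 2). Psmg1, Psmg2, Psmg3 and Psmd9 had 24 to 112 counts in any library, and their standard errors, 0.27 to 0.37, were as large as many of the subunits' changes.

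The alternative caps and the inhibitor did not pass the test. Psme3, the nuclear activator, had 107 and 83.2 CPM in LPS and 90.2 and 56.9 CPM in control libraries, with overlapping groups (log2 0.37 ± 0.30, adjusted p = 0.57). Psme4, a large single-chain activator, had 306 and 268 CPM in LPS and 240 and 211 CPM in control libraries (0.35 ± 0.19, adjusted p = 0.39). Both had values below 0 with total-count scaling (-0.04 and -0.08). Psmf1, an inhibitor of the core particle in vitro, had 41.3 and 26.1 CPM in LPS and 25.5 and 19.4 CPM in control libraries (0.59 ± 0.32, adjusted p = 0.38).

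Of the genes set apart, Psme2b rose and the others did not pass the test. Psme2b had 147 and 84 counts in LPS and 10 and 25 counts in control libraries, 7.24-fold higher (log2 2.86 ± 0.45, adjusted p = 0.019), which missed the threshold when LPS replicate 1 was left out (2.41, adjusted p = 0.081). Its transcript shares 51.7% of its windows of 101 bases letter for letter with transcripts of Psme2. Psme2 itself, with 2 accessions, had 1 and 5 counts in LPS and 0 and 1 in control libraries. Reads of the 2 genes cannot be told apart over the shared windows, and the level of Psme2b is uncertain. Psmb11 had 24 and 10 counts in LPS and 20 and 27 in control libraries (log2 -0.36 ± 0.51), Psmc3ip had 24 and 17 against 7 and 23 counts (0.61 ± 0.53), and Psme3ip1 had 176 and 163 against 141 and 165 counts (0.24 ± 0.22).

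The inducible genes left out by the rule had larger log2 fold changes than every tested member except Psme2b. Psmb9, Psmb8, Psmb10 and Psme1 all rose, by 3.40 ± 0.36, 2.85 ± 0.32, 2.72 ± 0.24 and 2.08 ± 0.26 on the log2 scale (adjusted p = 0.0048, 0.0060, 0.0027 and 0.0085). Psmb8, which replaces Psmb5, had 27.2 and 32.9 CPM in LPS and 3.42 and 4.81 CPM in control libraries. Psmb9, which replaces Psmb6, had 71.4 and 52.3 CPM in LPS and 7.36 and 4.42 CPM in control libraries. Psmb10, which replaces Psmb7, had 169 and 131 CPM in LPS and 23.9 and 21.5 CPM in control libraries. Psme1, of the inducible activator, had 209 and 149 CPM in LPS and 46 and 38.65 CPM in control libraries. The ratio of Psmb10 to Psmb7 counts was 0.917 and 0.761 in LPS and 0.194 and 0.187 in control libraries. Psmb8 to Psmb5 was 0.444 and 0.578 in LPS and 0.0774 and 0.148 in control libraries, and Psmb9 to Psmb6 was 0.256 and 0.221 in LPS and 0.0686 and 0.0364 in control libraries. Each ratio was higher in both LPS libraries, by 4.39, 4.73 and 4.76 times in the geometric mean. An exact permutation test of 2 against 2 libraries cannot go below a two-sided p of 0.333, so these ratios are given without a test. Per length of transcript, the inducible 3 made up 25.6% and 23.8% of the summed level of the 6 catalytic genes in LPS libraries, against 8.17% and 7.30% in control libraries. The constitutive 3 summed to 495 ± 42.6 CPM in LPS and 272 ± 3.87 CPM in control libraries (SD, n = 2 each), and the inducible 3 to 242 ± 36.9 and 32.7 ± 2.78 CPM.

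Ratios within a library do not depend on how libraries are scaled, so they give the spread of the changes inside each group without a scaling. Psma6 counts were 2.29 and 2.13 times those of Psma1 in LPS, against 0.956 and 0.854 times in control libraries. Psmb6 counts were 1.5 and 1.05 times those of Psmb1 in LPS and 0.569 and 0.537 times in control libraries. Psmd11 counts were 0.818 and 0.905 times those of Psmd8 in LPS and 0.529 and 0.469 times in control libraries. The pairs are the genes with the highest and lowest fold change of their group, so the direction of these ratios follows from the choice. Among ATPase genes the same pairing gave the smallest shift, with Psmc4 at 0.714 and 0.699 times Psmc1 in LPS and 0.583 and 0.536 times in control libraries.

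**Figure D4:**
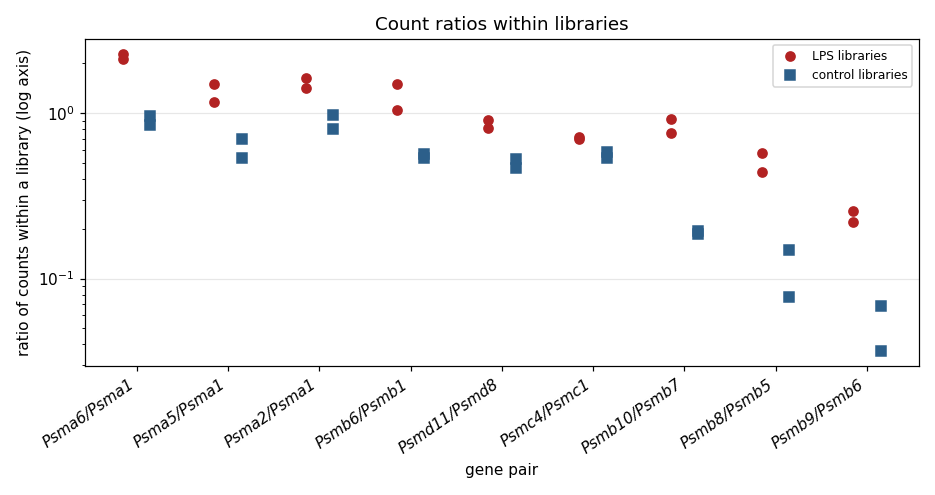
Ratio of the counts of 2 genes within each library (log axis) for 6 pairs of constitutive genes and 3 pairs of an inducible and a constitutive catalytic gene; red circles are LPS and blue squares control libraries. The LPS points lie above the control points in each pair, by 1.26 times for Psmc4 over Psmc1 and by 4.39 to 4.76 times for the 3 inducible pairs.

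Although the subunits are assembled in fixed proportions, their counts per length of transcript were uneven. The length is that of the longest GENCODE transcript matched to each gene. Psma7, Psmd2 and Psmd4 were not tested and are left out. Exons of some subunits overlap other genes, as those of Psmd13 do with Sirt3. The part of transcript choice and shared reads in this spread was not tested. Over the 28 tested subunit genes of the core and regulatory particles, the mean level per kilobase of transcript ran from 18.1 (Psmd13) to 362 CPM per kb (Psma6) in LPS libraries, with a median of 90.5, and from 12.8 (Psmc5) to 182 CPM per kb (Psmd8) in control libraries, with a median of 61.3. The highest was 20.0 times the lowest in LPS and 14.2 times in control. Psma6 was at 362 in LPS and 140 CPM per kb in control libraries, Psmb6 at 323 and 143, Psmb5 at 65.7 and 42.6, and Psmb1 at 117 and 118. With TMM scaling, core particle genes together held 2535 ± 77.5 CPM in LPS and 1519 ± 72.6 CPM in control libraries. Regulatory particle genes held 1893 ± 37.5 and 1391 ± 140 CPM (SD, n = 2 each). Over all 46 members such sums were 5168 and 5013 CPM in LPS and 3272 and 3543 CPM in control libraries. With total-count scaling the sums over all members were 4248 and 4550.5 CPM in LPS and 3440.5 and 4514.8 CPM in control libraries. These groups overlapped, as control replicate 2 lay above LPS replicate 1. The sums of each particle were not tested with total-count scaling.

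Other genes of the pathway were described from lists chosen by function. Of 12 genes for proteasome-bound and assembly factors, 8 were tested, all had log2 fold changes above 0 (median 0.63, 5 above 0 with total-count scaling), and none was called, with 5 higher at an unadjusted p under 0.05 (12.8% of all genes). Pomp, the chaperone that matures the beta ring, had 127 and 130 CPM in LPS and 86.5 and 92.3 CPM in control libraries (0.52 ± 0.19, adjusted p = 0.19). Ecpas, a scaffold that tethers the particles, had 397 and 382 CPM in LPS and 227 and 240 CPM in control libraries (0.74 ± 0.18, adjusted p = 0.068). Of 10 genes for the control of proteasome gene transcription, 8 were tested and 2 rose, beside 6.55% of all genes. Both encode small Maf proteins, the partners of NRF1 and NRF2. Mafk of the same list was not called (1.38 ± 0.41, adjusted p = 0.12), nor was Bach1 (-0.10 ± 0.28, adjusted p = 0.90). Maff had 58.5 and 56.4 CPM in LPS and 13.4 and 14.8 CPM in control libraries (2.02 ± 0.23, adjusted p = 0.0060). Mafg had 68.3 and 57.8 CPM in LPS and 29.97 and 23.7 CPM in control libraries (1.24 ± 0.24, adjusted p = 0.038). Mafg missed the threshold when LPS replicate 1 (adjusted p = 0.26), LPS replicate 2 (0.13) or control replicate 2 (0.11) was left out, with total-count scaling (0.093) and after quantile normalization (0.057). Nfe2l2, which encodes NRF2, had 829 and 614 CPM in LPS and 392 and 341 CPM in control libraries (0.98 ± 0.22, adjusted p = 0.061). Ddi2, the protease that activates NRF1, had 15 and 19 counts in LPS and 58 and 53 counts in control libraries (-1.63 ± 0.39, adjusted p = 0.068), and it shares 1749 exon bases with Rsc1a1. With total-count scaling Ddi2 was called lower (-2.03, adjusted p = 0.027). Nfe2l1, which encodes NRF1 and has 6 accessions, had 2 and 0 counts in LPS and 0 in both control libraries and could not be judged. Of 15 genes for ubiquitin supply, shuttles and the unfoldase adaptors, 9 were tested and none was called, with a median of 0.23 (3 above 0 with total-count scaling). Ddi2 is in this list too, so the list had 1 call, lower, with total-count scaling. Uba6, a ubiquitin-activating enzyme, had 104 and 93.8 CPM in LPS and 68.6 and 71.7 CPM in control libraries (0.49 ± 0.20, adjusted p = 0.23).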

How the data were processed

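The table the authors deposited gives counts in whole numbers, 1 line for each of 32915 RefSeq accessions, for 4 libraries. Its name calls the counts normalized, but the library totals differ and no rescaling was visible, so they were used as counts; whether they were normalized before deposit was not tested. Per the submitters' processing notes, the tools included TopHat2 2.0.10 and HTSeq 0.6.1, with Trimmomatic 0.33, CASAVA 1.8.2 and Cufflinks 2.2.1, on build mm10; the sources used here do not give the counting mode or strand setting, so overlapping genes may share reads. Accessions were matched to symbols by a RefSeq table of GRCm38.p6 (32487) or GENCODE metadata (187), 241 matched neither, and counts were summed per symbol. 1 unnamed accession held 20.0% to 24.8% of counts per library.

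Testing was limited to a mean count of 10 or more and done with edgeR 4.0.16 in R 4.3.3 (quasi-likelihood, TMM factors 0.822 and 0.908 for LPS and 1.05 and 1.27 for control, no covariate, Benjamini-Hochberg adjustment over 9548 genes, threshold 0.05), after the steps were tested on simulated data. CPM are TMM-scaled. Standard errors are the log2 fold change over the square root of F. Levels per length use GENCODE transcript lengths. Alternatives were DESeq2 1.42.0, limma 3.58.1, other scalings and filters, a replicate block and each library left out. Libraries of a group were not repeats of 1 library: chi-square divided by its degrees of freedom was 22.6 for LPS and 26.8 for control. Members and lists were chosen with earlier results of these data known. Values in every library are given for called members, catalytic subunits and their inducible counterparts, caps, and the highest and lowest member of each role. Psma3, Psma4, Psmb2, Psmb3, Psmb4, Psmd7, Psmd14, Psmg2 and the genes named from the other lists were picked for naming after their values were seen.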

Additional observations from a re-analysis of the deposited data

How the results depend on the processing

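The count of 6 members called higher stayed between 5 and 7 with DESeq2, RLE size factors, limma-trend, no filter, a minimum mean of 50, genes with 1 accession, the 10 most abundant genes left out, or without the 5 genes set apart. It was 1 with total-count scaling and 1 after quantile normalization (chosen after the data were seen), and ranged from 0 to 4 with 1 library left out: 0 without LPS replicate 1 and 1 without LPS replicate 2, where 1 LPS library remains and is assumed to vary like the controls. The members' median log2 fold change was 0.063 with total-count scaling, 0.14 after quantile normalization and 0.40 to 0.53 with 1 library left out; minus the median of all genes it was 0.73 without a filter, 0.28 after quantile normalization and 0.44 to 0.59 with 1 library left out. No member was called lower in any setting run. All genes called lower numbered 171, 483 with total-count scaling, 322 after quantile normalization and 33 to 241 with 1 library left out; all genes called higher numbered 625 and 339 to 660 with 1 library left out. Libraries share replicate numbers across groups, but the labels do not say that a number marks a shared culture or day. With the replicate number as a block, 24 members were called higher, and 1677 genes higher (17.6%) and 1258 lower (13.2%). Of the genes given with values in every library by the rule, Psmb5, Psmb7, Psmc4, Psmd5, Psme3, Psme4 and Psmf1 were called in this setting alone. Psmd7, which that rule does not name, was called higher with the block in edgeR (adjusted p = 0.00045). Ddi2 was also called lower with the block in edgeR (adjusted p = 0.00043). The deviations of same-numbered libraries correlated across 5769 genes at 0.775. Among the genes given with values in every library by the rule, uncalled values that changed sign were Psmb1 (0.005 with DESeq2, 0.006 with RLE, 0.097 without a filter, and -0.148 to 0.127 with 1 library left out, where it was 0.098 without control replicate 2), Psma1 (-0.37 with total counts, -0.031 with a minimum of 50, -0.100 to 0.230 with 1 library left out, -0.42 after quantile normalization), Psmc1 (-0.16 with total counts, -0.23 quantile), Psmd8 (-0.32 with total counts, -0.067 to 0.316 with 1 library left out, -0.44 quantile), Psme3 (-0.035 with total counts), Psme4 (-0.076 with total counts, -0.25 quantile) and Psmd9 (-0.615 to 0.235 with 1 library left out). Of the other members, Psmb3, Psmc6, Psmd1 and Psmd13 were also below 0 with total counts and after quantile normalization, Psmc3, Psmd12 and Psme3ip1 with total counts, and Psmc2 after quantile normalization. The cause of these shifts was not tested. Of 362 values of single genes under alternatives, 306 kept their direction and side of the threshold.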
